A study of Mus musculus with 8 samples.

Results

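The loci described here are those of 9 lineage transcription factor genes outside the Hox clusters: Pax6, Gata4, Gata6, T, Sox17, Foxa2, Cdx2, Otx2 and Eomes. Their members are the TET1 peaks, called on the mouse build mm9, that overlap a fixed window around each gene by at least 1 bp. The windows are 25 to 94 kb long and were set by position, not by signal. They held 259 of the 446708 peaks of the 6 deposited lists, which merged into 60 of 137027 regions. TET1 carrying an HA tag at its endogenous gene was precipitated from mouse embryonic stem cells, and the DNA was sequenced (ChIP-seq). The series design names the cells as E14TG2a, whereas the sample labels give the strain C57BL/6N, and every sample has the HA-Tet1 genotype. All cells were permeabilised and incubated for 20 min, in 3 mock samples without enzyme and in 3 samples, titled RNaseH1, with both RNase H1 (0.2 U per µl) and Nuclease S1 (0.05 U per µl). The second group is called nuclease-treated here. Neither enzyme was given alone, and nothing measured RNA-DNA hybrids. Since no label says that replicates came from separate cultures, the p-values refer to the spread among these libraries alone, and that spread may be technical. Treatment preceded crosslinking.

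TET1 oxidises the methyl group of methylated cytosine in DNA, a step towards its removal, and has a zinc finger domain of the CXXC type that binds DNA rich in CG dinucleotides. RNase H1 cuts the RNA strand of an RNA-DNA hybrid and Nuclease S1 cuts single-stranded nucleic acid. Both structures occur in R-loops, where RNA pairs with one DNA strand and displaces the other. The 9 genes encode factors that direct early lineages and are mostly silent or low in undifferentiated embryonic stem cells, many of them in a poised state at CG-rich promoters; Otx2 is also known from the transition out of naive pluripotency. Sox17, Foxa2, Gata4 and Gata6 act in endoderm, T (brachyury) and Eomes in mesoderm and endoderm precursors, Pax6 and Otx2 in neural tissue, and Cdx2 in trophectoderm and the posterior body axis. No expression was measured in these samples.

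The promoters of T, Eomes and Cdx2 are shown because these genes have a single promoter entry each and stand for different extents of TET1 change at the strongest region of the locus: smallest at T, intermediate at Cdx2 and greatest at Eomes. Each sequence is the RefSeq promoter on GRCm38.p6, from 250 bases before to 50 after the gene's start, on the gene's own strand (plus for T and Eomes, minus for Cdx2), with every CG dinucleotide in capitals.
T: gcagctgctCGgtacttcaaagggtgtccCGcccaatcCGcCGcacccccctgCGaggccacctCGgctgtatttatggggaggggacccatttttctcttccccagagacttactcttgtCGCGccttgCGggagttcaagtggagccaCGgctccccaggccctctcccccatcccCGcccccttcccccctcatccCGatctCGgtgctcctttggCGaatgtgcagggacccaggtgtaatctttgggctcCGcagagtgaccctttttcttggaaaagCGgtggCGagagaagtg
Eomes: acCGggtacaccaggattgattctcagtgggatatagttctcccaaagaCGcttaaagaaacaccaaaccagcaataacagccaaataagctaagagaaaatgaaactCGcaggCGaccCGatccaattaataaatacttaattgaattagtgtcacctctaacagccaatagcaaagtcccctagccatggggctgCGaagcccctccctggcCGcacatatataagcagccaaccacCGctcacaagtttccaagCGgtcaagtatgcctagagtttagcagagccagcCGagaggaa
Cdx2: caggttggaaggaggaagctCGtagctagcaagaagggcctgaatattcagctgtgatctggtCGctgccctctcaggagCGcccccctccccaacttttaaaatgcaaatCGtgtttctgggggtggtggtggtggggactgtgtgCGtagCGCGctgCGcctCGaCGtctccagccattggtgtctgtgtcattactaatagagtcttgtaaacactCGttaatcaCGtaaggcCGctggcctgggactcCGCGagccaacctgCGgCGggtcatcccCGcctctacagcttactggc

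The CG dinucleotide, which reads the same on both strands, occurred 17 times in the T promoter, 10 times in that of Eomes and 18 times in that of Cdx2. The median of all 32851 promoters of this length was 7, and 94.6% of them held at least 1 CG. A count as high as that of T was found in 31.4% of promoters, as that of Eomes in 43.5% and as that of Cdx2 in 29.7%. GC skew, the excess of G over C on the gene's strand as a share of both, was -0.135 for T, -0.141 for Eomes and 0.0349 for Cdx2. Promoters were matched for 6 of the 9 genes, and these 12 promoters held 6 to 23 CG dinucleotides. The promoter set held no entry for Gata4, Gata6 or Sox17. The match also left out chromosome 18, where Gata6 lies. The lowest count was at an Otx2 promoter and the highest at a Foxa2 promoter. The peaks are on another build, so the distance of these promoters to the peaks was not measured, and whether a peak lies in a promoter, exon or intron is not reported.

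The 9 loci carried TET1 peaks in every library, at very unequal strength. The peaks are described by the fragment coverage at their summit divided by the mean coverage of the genome in the same library, given below as times background. That genome-wide mean was 1.93 to 2.253 fragments in the 6 libraries, and the lists held 62161 to 83601 peaks. Summits in the 9 windows rested on 9 to 56 fragments, with a median of 19, which limits the precision of any single peak. In mock cells the highest summit in the window averaged 23.3 ± 1.90 times background at Eomes, 22.3 ± 3.51 at Gata6, 20.6 ± 0.882 at Pax6, 19.3 ± 2.89 at Sox17 and 18.0 ± 0.941 at Cdx2 (SD, n = 3 each). Lower values were found at Foxa2 with 16.2 ± 1.43, T with 13.7 ± 2.14, Gata4 with 12.5 ± 0.408 and Otx2 with 10.1 ± 1.03 (SD, n = 3 each). Each locus overlapped the next one down in the range of its libraries, except that all Gata4 values lay above all Otx2 values.

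**Figure D1:**
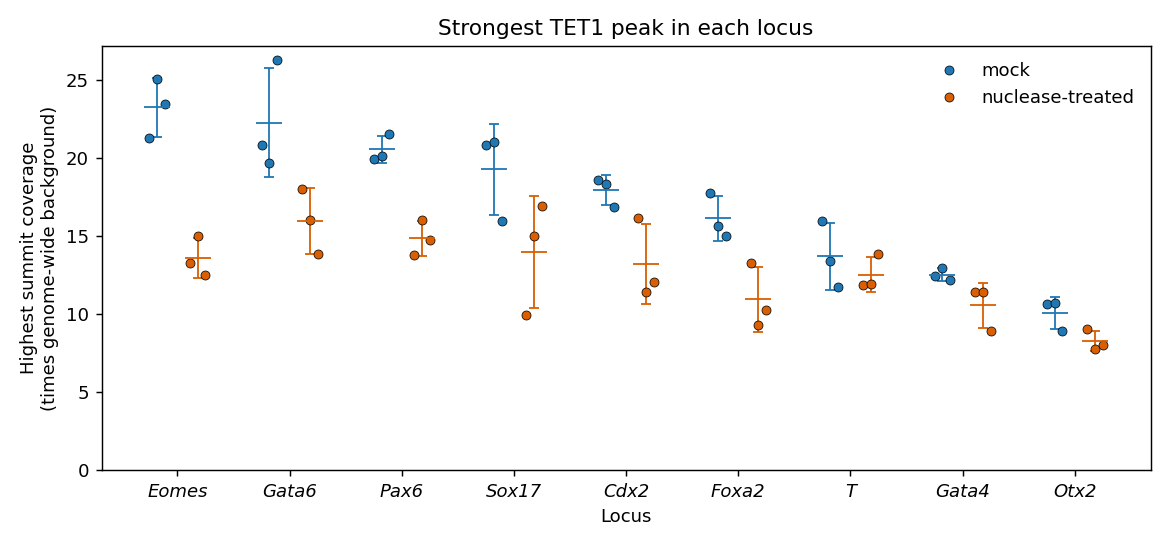
Highest TET1 summit coverage in each locus window, in times the genome-wide background of the library, on a linear axis. Points are libraries (3 mock, 3 nuclease-treated), and horizontal ticks with bars are the mean and SD. The mock libraries lie above the nuclease-treated ones without overlap at Eomes, Gata6, Pax6, Cdx2, Foxa2 and Gata4, and the groups overlap at Sox17, T and Otx2.

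After nuclease treatment the highest summit was lower on average at all 9 loci, and the order of the loci changed. Gata6 now led with 16.0 ± 2.105 times background, followed by Pax6 with 14.9 ± 1.15, Sox17 with 13.99 ± 3.61 and Eomes with 13.6 ± 1.29 (SD, n = 3 each). Cdx2 had 13.2 ± 2.57, T 12.5 ± 1.12, Foxa2 10.97 ± 2.07, Gata4 10.6 ± 1.43 and Otx2 8.28 ± 0.659 (SD, n = 3 each). Every locus again overlapped its neighbour in this order. Eomes, which led in mock cells, now came after Gata6, Pax6 and Sox17, and the spread between loci was narrower. At 6 of the 9 loci every treated library was below every mock library, for which the exact two-sided permutation p was 0.1, the smallest that 3 against 3 can give. This separation was common in the genome: of 19358 tiles of 30 kb with a peak in all 6 libraries, 53.4% showed it in the same direction. Tiles have a fixed length and take peaks by midpoint, whereas the windows are 25 to 94 kb long and take overlapping peaks. Tiles were also not matched to the loci in summit coverage. This share and those of tiles given below are therefore a rough background only, and whether the 9 loci differ from the genome was not tested. With the authors' fold in place of coverage the exact two-sided permutation p was 0.5 at Gata6 and 0.1 at each of the other 8 loci, Sox17, T and Otx2 included. The share of tiles that separate by fold was not computed, so these 8 have no background to be set against. That fold divides by the peak caller's local background, from 1 pooled input per condition, so its p-values rest partly on an unreplicated difference.

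Region by region, TET1 coverage fell at 7 of the 22 member regions that had a peak in all 6 libraries, and rose at none. The test was limma on log2 coverage over background, fitted to all 29613 regions with a peak in every library and adjusted over all of them (Benjamini-Hochberg, 0.05). Of all those regions 33.0% fell and 0.324% rose, so the members' 7 of 22, or 31.8%, lie at the background. The median log2 difference, nuclease-treated minus mock, was -0.45 in the members and -0.35 over all regions, and 21 of the 22 members were below 0. At 11 of the 22 the groups did not overlap, with nuclease-treated lower, against 44.7% of all regions. When each library was centred on its median over all regions, which removes the shift shared by the genome, limma called none of the 22 in either direction. The lowest adjusted p was then 0.0887, 2 of the 22 had an unadjusted p under 0.05, and the members' median difference was -0.10. The member count also depended on which library was left out. It was 2 of 22 without mock replicate 1 (23.2% of all regions then fell), 4 of 22 without mock replicate 2 (23.6%) and 7 of 22 without mock replicate 3 (27.7%). It was 5 of 25 without RNaseH1 replicate 1 (22.2%), 3 of 25 without RNaseH1 replicate 2 (21.3%) and 4 of 23 without RNaseH1 replicate 3 (22.3%). With the authors' fold enrichment in place of coverage 17 of 22 fell, against 55.8% of all regions, and among regions of at least 10 times background 11 of 17 did, against 57.7%.

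**Figure D2:**
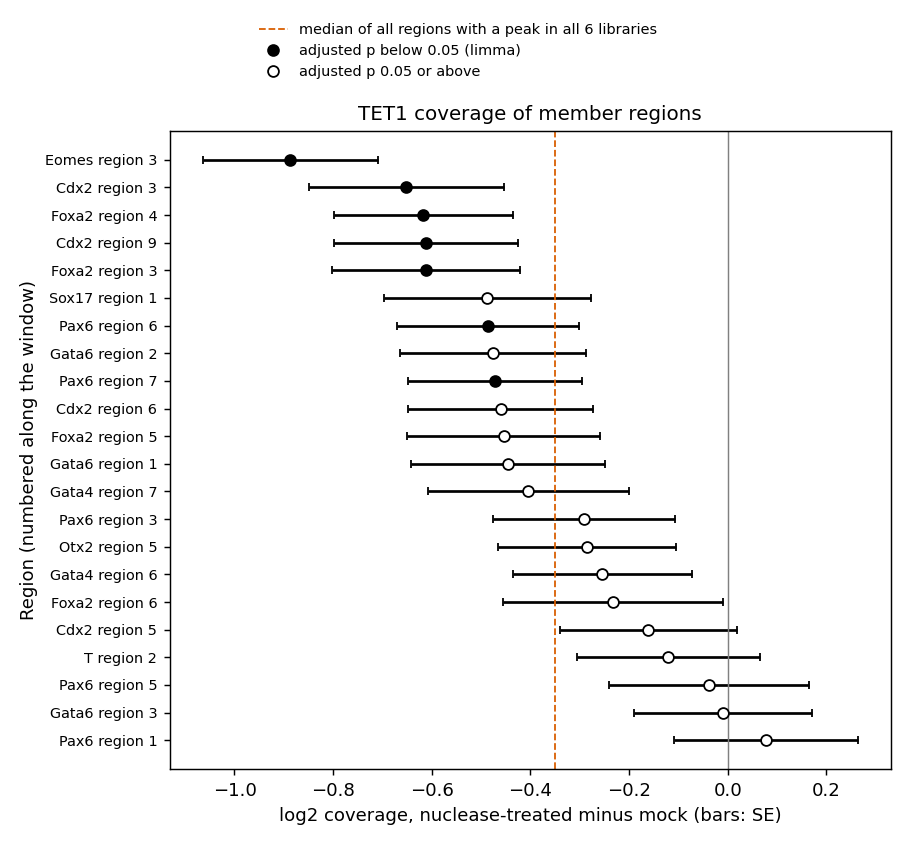
Difference in log2 TET1 coverage (nuclease-treated minus mock) for the 22 member regions with a peak in all 6 libraries, sorted by size, with bars for the SE of the limma fit. Filled points have an adjusted p below 0.05, the dashed line is the median of all 29613 regions (-0.35), and the filled points all lie to its left, with Eomes region 3 farthest at -0.89.

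Eomes held the largest fall. Eomes encodes a T-box factor needed for definitive endoderm and for trophoblast development. Its main region, chr9:118387509-118389020, stood at 21.3, 25.1 and 23.5 times background in mock replicates 1, 2 and 3, and at 13.3, 11.9 and 12.5 after treatment. The lowest mock value was thus well above the highest treated one. Coverage fell by 46.0%, a log2 difference of -0.89 ± 0.18 (SE, n = 3 each, limma adjusted p = 0.00191). Of all regions tested 5.82% had a more negative difference, and 86.4% were weaker in mock cells. After centring on the genome-wide median the difference was -0.53, with a limma adjusted p = 0.0887. The range of limma adjusted p over all 16 alternatives was 2.22e-06 to 0.0887. The peak itself was narrower, at 1512, 1499 and 1418 bp in mock and 988, 933 and 1126 bp in the treated libraries. At its summit the local background used by the peak caller was 2.67 to 2.73 fragments in mock lists and 4.18 to 4.27 in treated lists; each group shares 1 pooled input, and the part of this in the peak's width was not tested.

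Other Eomes regions were weaker and less regular. The region chr9:118396754-118397249 had 13.3, 16.1 and 9.85 times background in mock replicates 1, 2 and 3, 8.55 and 15.0 in RNaseH1 replicates 1 and 2, and no peak in replicate 3. In RNaseH1 replicate 2 it was the highest summit of the window. The region chr9:118398102-118398455 had 9.32, 8.06 and 7.98 times background in the mock libraries and a peak in none of the treated lists. A list gives no value where no peak was called, so the coverage there after treatment is unknown. Sequence under peaks in the Eomes window came to 2913 ± 143 bp in mock and 1728 ± 507 bp after treatment (SD, n = 3 each), without overlap (exact two-sided permutation p = 0.1).

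T, the other T-box gene of the set and a marker of the primitive streak, differed little at its main region. The region chr17:8626274-8628482 had 16.0, 13.4 and 11.7 times background in mock replicates 1, 2 and 3, and 11.9, 11.9 and 13.8 in RNaseH1 replicates 1, 2 and 3. The groups overlapped, and the log2 difference was -0.12 ± 0.19 (SE, n = 3 each, limma adjusted p = 0.645). Relative to the genome-wide shift it was 0.23 higher in the treated libraries (limma adjusted p = 0.465). With the authors' fold in place of coverage the difference was -0.54 (limma adjusted p = 0.0211). That fold divides by a local background from 1 pooled input per condition, so its p rests partly on an unreplicated difference. Over the 16 alternatives the limma adjusted p ran up to 0.989. The region was split into 2 peaks in mock replicate 2 and RNaseH1 replicate 1 and into 3 in RNaseH1 replicate 2, and was a single peak in the other lists. Its widest peak measured 2209, 1460 and 1440 bp in mock and 1319, 505 and 1411 bp in the treated libraries, without overlap. A second region, chr17:8631142-8631719, had a peak in all 3 mock lists at 6.21 to 7.98 times background, and in 1 treated list at 5.70.

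Among the endoderm genes, coverage fell at 2 regions of Foxa2, the gene of a forkhead pioneer factor of endoderm and notochord. The strongest Foxa2 region, chr2:147869213-147871078, had 17.8, 14.8 and 15.0 times background in mock and 11.4, 9.33 and 10.3 after treatment. The groups did not overlap, and the log2 difference was -0.62 ± 0.18 (SE, n = 3 each, limma adjusted p = 0.0148; range over 16 alternatives 1.02e-05 to 0.396). This call was lost without mock replicate 1 (limma adjusted p = 0.0679), without RNaseH1 replicate 2 (0.0657) and after centring. A neighbouring region, chr2:147865363-147866688, had 10.2, 11.2 and 11.7 times background in mock and 9.03, 6.22 and 6.70 after treatment, a log2 difference of -0.61 ± 0.19 (SE, n = 3 each, limma adjusted p = 0.0195). After centring its limma adjusted p was 0.430. The other pair of Foxa2 regions found in all lists had differences of -0.45 (chr2:147871210-147872861) and -0.23 (chr2:147874441-147874983), and neither passed the test. The latter held the highest summit of the window in mock replicate 2 (15.7 times background) and RNaseH1 replicate 1 (13.3).

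Peaks at Foxa2 numbered 7, 4 and 4 in mock replicates and 6, 5 and 5 in treated ones. The mean difference of 0.333 peaks turned to -1.67 with a stricter q threshold and to -0.167 without mock replicate 2 or without mock replicate 3. The small region chr2:147864225-147864693 had a peak in all 3 treated lists, at 4.47 to 6.18 times background, and in 1 mock list at 5.33. Sequence under Foxa2 peaks was 4467 ± 700 bp in mock and 3560 ± 692 bp after treatment (SD, n = 3 each), and the groups overlapped (exact two-sided permutation p = 0.2).

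Sox17, whose product is an HMG-box factor of definitive endoderm, had 1 strong region, chr1:4481777-4483945. It stood at 20.9, 21.1 and 16.0 times background in mock replicates 1, 2 and 3 and at 9.98, 15.0 and 17.0 after treatment. RNaseH1 replicate 3 was above mock replicate 3, and the log2 difference of -0.49 ± 0.21 (SE, n = 3 each) did not pass (limma adjusted p = 0.0799). Without mock replicate 3 it did, at -0.62 with a limma adjusted p = 0.0432, which was 1 of 5 alternatives that passed. Without RNaseH1 replicate 1 it was -0.26 with a limma adjusted p = 0.389, and the range over 16 alternatives was 0.00261 to 0.732. The region was a single peak in every mock list, and 2 peaks in RNaseH1 replicates 1 and 3. The widest peak was 1987, 2130 and 2075 bp in mock, and 960, 2063 and 1056 bp after treatment. A weaker region, chr1:4486969-4487725, was found in all 3 mock lists and in 2 of the treated ones.

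The GATA genes differed from each other in layout. Gata6, which directs primitive endoderm, had only 3 regions, and each had a peak in all 6 lists. Its main region, chr18:11051872-11055436, was the widest of all 60 at 3565 bp. Its coverage was 20.9, 19.7 and 26.3 times background in mock and 18.1, 16.1 and 13.8 after treatment. The groups did not overlap, but the log2 difference of -0.48 ± 0.19 (SE, n = 3 each) missed the threshold (limma adjusted p = 0.0585), which 5 of its 16 alternatives passed (0.0185 to 0.729 over all). The region chr18:11047937-11048821 differed by -0.45 and chr18:11058858-11059381 by -0.01 on the log2 scale, both without passing.

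Gata4, a GATA factor of heart and endoderm, had 11 regions in the longest window, of which 2 were found in all lists. Its strongest region, chr14:63859287-63860438, had 12.4, 13.0 and 12.2 times background in mock and 11.4, 11.4 and 8.93 after treatment, a log2 difference of -0.25 ± 0.18 (SE, n = 3 each, limma adjusted p = 0.290; 0.0032 to 0.771 over 15 alternatives). The authors' fold, which rests partly on the pooled inputs, gave -0.73, the only alternative to pass, and the difference was -0.14 without RNaseH1 replicate 3. The next, chr14:63863468-63864836, was the widest of the locus and differed by -0.40 ± 0.20 (SE, n = 3 each, limma adjusted p = 0.130). A narrow region at chr14:63812406-63812783 had 7.55, 7.17 and 8.45 times background in the mock libraries and no peak in any treated list. Sequence under Gata4 peaks was 3709 ± 527 bp in mock and 2161 ± 347 bp after treatment (SD, n = 3 each), without overlap.

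In the neural group, Pax6, a paired-box factor of eye and forebrain, had the most peaks of the 9 loci. Its strongest region, chr2:105516140-105517030, had 20.0, 20.2 and 21.6 times background in mock and 13.8, 16.1 and 14.7 after treatment, with no overlap. The log2 difference was -0.47 ± 0.18 (SE, n = 3 each, limma adjusted p = 0.0460). That call was lost whichever library was left out (limma adjusted p from 0.0677 to 0.138), and the range over 16 alternatives was 0.00295 to 0.718. The adjoining region chr2:105513752-105515930, the widest of the locus, had 15.1, 15.2 and 13.1 times background in mock and 11.9, 10.4 and 8.93 after treatment (log2 difference -0.49 ± 0.18, SE, n = 3 each, limma adjusted p = 0.0481). After centring its limma adjusted p was 0.693. By contrast, 3 other Pax6 regions found in all lists had differences of -0.29 (chr2:105506806-105508217), -0.04 (chr2:105509514-105510513) and 0.08 (chr2:105499901-105501174, which reaches past the window's edge), and none passed the test. Of the 22 member regions found in all lists, the last was the only one with a positive difference.

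Otx2, a homeobox factor of forebrain and of the epiblast, was the weakest locus. Its strongest region, chr14:49285604-49286444, had 10.7, 10.8 and 8.92 times background in mock and 9.03, 7.78 and 8.04 after treatment (log2 difference -0.29 ± 0.18, SE, n = 3 each, limma adjusted p = 0.228; 0.0151 to 0.851 over 14 alternatives). With the authors' fold, which rests partly on the pooled inputs, the difference was -0.57, the only alternative to pass. It was the only Otx2 region found in all 6 lists. The widest, chr14:49293283-49294413, had 7.55, 9.86 and 7.04 times background in mock, 6.18 and 7.15 in RNaseH1 replicates 1 and 3, and no peak in replicate 2. Peaks numbered 7, 5 and 3 in mock replicates 1, 2 and 3 and 4, 1 and 4 after treatment. Sequence under peaks was 4213, 3843 and 1643 bp in mock and 1718, 450 and 2240 bp after treatment, so mock replicate 3 lay within the treated range.

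At Cdx2, a caudal-type homeobox gene of trophectoderm and hindgut, coverage fell at 2 flanking regions. The region chr5:148111021-148111704 had 14.2, 9.41 and 14.5 times background in mock and 7.60, 7.78 and 8.49 after treatment (log2 difference -0.65 ± 0.20, SE, n = 3 each, limma adjusted p = 0.0171). The region chr5:148126544-148127330 had 17.3, 13.0 and 13.1 times background in mock and 8.55, 9.85 and 9.83 after treatment (log2 difference -0.61 ± 0.19, SE, n = 3 each, limma adjusted p = 0.0175). Neither pair of groups overlapped. The strongest Cdx2 region, chr5:148117371-148119035, lies between them, with 18.6, 18.4 and 16.9 times background in mock and 16.2, 11.4 and 12.1 after treatment. Its log2 difference of -0.46 ± 0.19 (SE, n = 3 each) did not pass (limma adjusted p = 0.0649), but 6 of its 16 alternatives did (limma adjusted p 0.00348 to 0.766 over all). The region next to it, chr5:148115909-148117067, differed by -0.16 ± 0.18 (SE, n = 3 each, limma adjusted p = 0.514). After centring, the flanking regions had a limma adjusted p of 0.378 and 0.412. Only the strongest region of each locus was followed singly through the other alternatives. Whether the flanking regions differ from the central ones in their response was not tested.

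**Figure D3:**
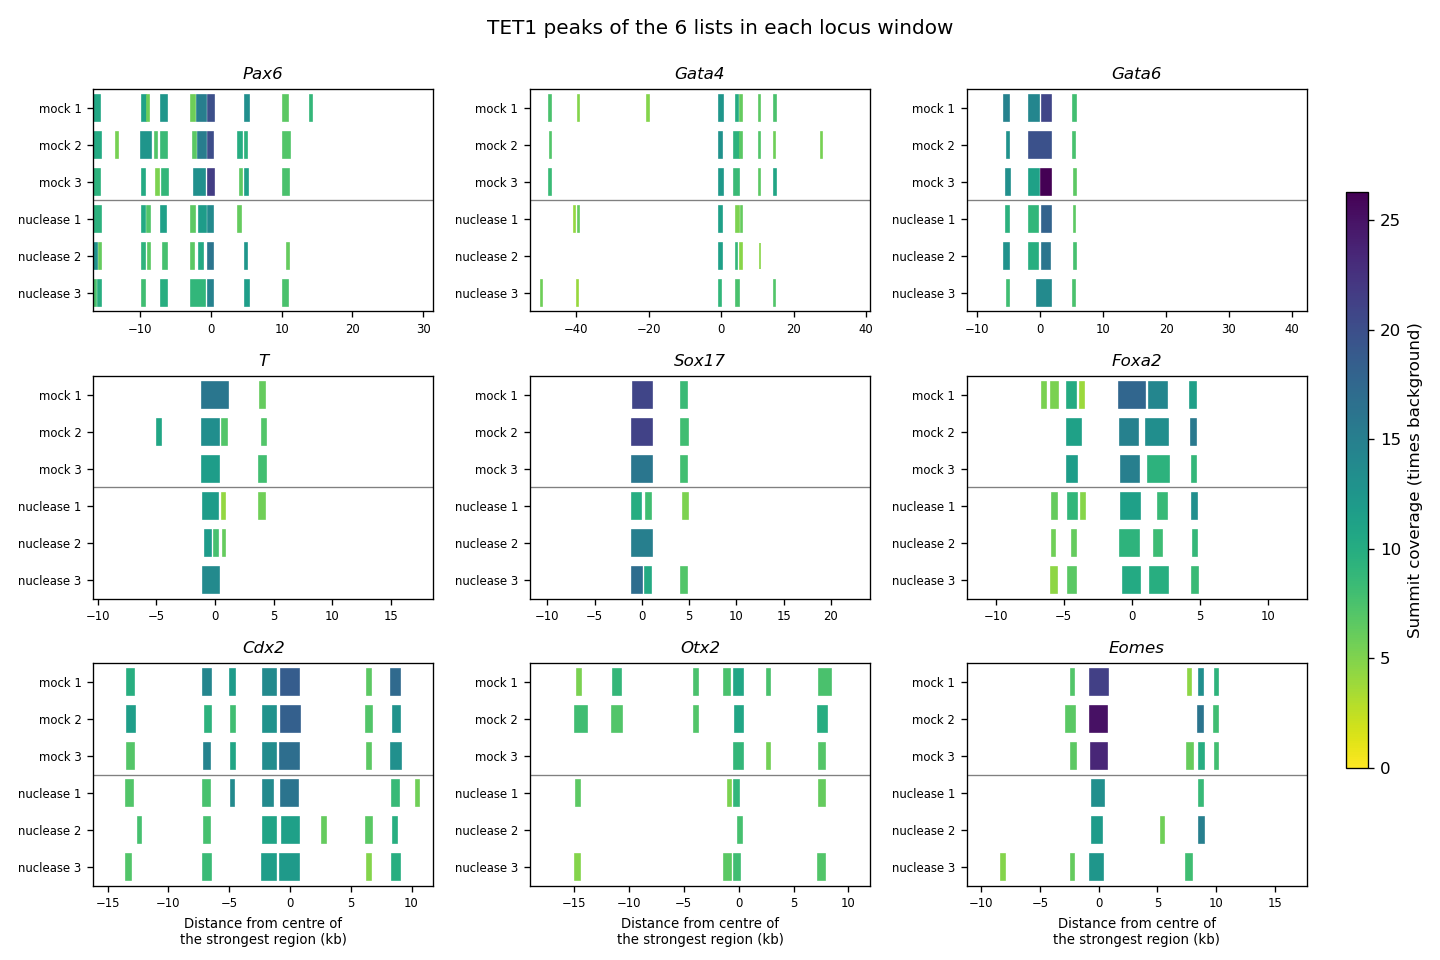
Peaks of the 6 lists in each window, by distance in kb from the centre of the strongest region, with 3 mock lists above and 3 nuclease-treated lists below the grey line. Boxes are peaks and their colour is summit coverage in times background. The strongest region of each locus recurs in all 6 lists, with a lower mean coverage below the line at every locus, while narrow pale peaks come and go between lists.

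Peaks did not disappear from the loci as a whole. Of the 60 member regions, 36 had a peak in all 3 mock lists. Of these, 22 also had one in all 3 treated lists, 7 in 2 of them, 5 in 1 and 2 in none. Over the genome the corresponding numbers were 29613, 9515, 5923 and 3222 of 48273. The members with none, 1 each at Gata4 and Eomes, were described above, and the genome's share with none was 6.67%. In the other direction, 23 member regions had a peak in all 3 treated lists, and 0 of them lacked a mock peak, against 1.68% of such regions in the genome. A further 13 member regions were found in a single list, 6 of them mock and 7 treated, which is 21.7% of members against 34.0% of all regions. At the deposited thresholds, peak numbers in the windows overlapped between groups at all 9 loci, where 4.34% of 45005 tiles of 30 kb with any peak had fewer treated peaks without overlap. Summed over the 9 windows, mock lists held 52, 47 and 41 peaks and treated lists 42, 38 and 39 (exact two-sided permutation p = 0.2). With a stricter q threshold, treated peaks were fewer with an exact two-sided permutation p of 0.1 at Cdx2, Eomes, Gata4, Otx2 and Pax6, and with lists cut to equal length at Eomes and Gata4. The share of tiles was not computed at these 2 settings, so whether the loci differ from the genome there is unknown.

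Sequence under peaks was lower after treatment at all 9 loci on average. It came to 37998, 37396 and 32325 bp over all windows in mock replicates 1, 2 and 3 and to 26715, 22418 and 28540 bp in the treated ones, a mean change of -27.9% without overlap (exact two-sided permutation p = 0.1). Over the whole genome the mean change was -21.5%. The ratio of treated to mock means ran from 0.454 at Otx2 to 0.864 at Cdx2. The groups did not overlap at 6 loci, namely Pax6, Gata4, Gata6, Sox17, Cdx2 and Eomes, and overlapped at T, Foxa2 and Otx2. These calls moved with the peak threshold: the exact two-sided permutation p was 0.1 at all 9 loci with a stricter q threshold, while lists of equal length gave 0.2 at Pax6 and 0.1 at T and Foxa2. At the deposited thresholds 19.4% of all tiles with any peak showed such a separation. Of the 3440 tiles with a mean of at least 10% under peaks 40.8% did. These shares were not computed for the stricter or the equal-length lists, so the calls there have no background to be set against. The mock mean under peaks was 3.95% of the window at Gata4 and 7.57% to 18.7% at the others. In both groups it was above 10% at Pax6, Foxa2 and Cdx2 only.

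**Figure D4:**
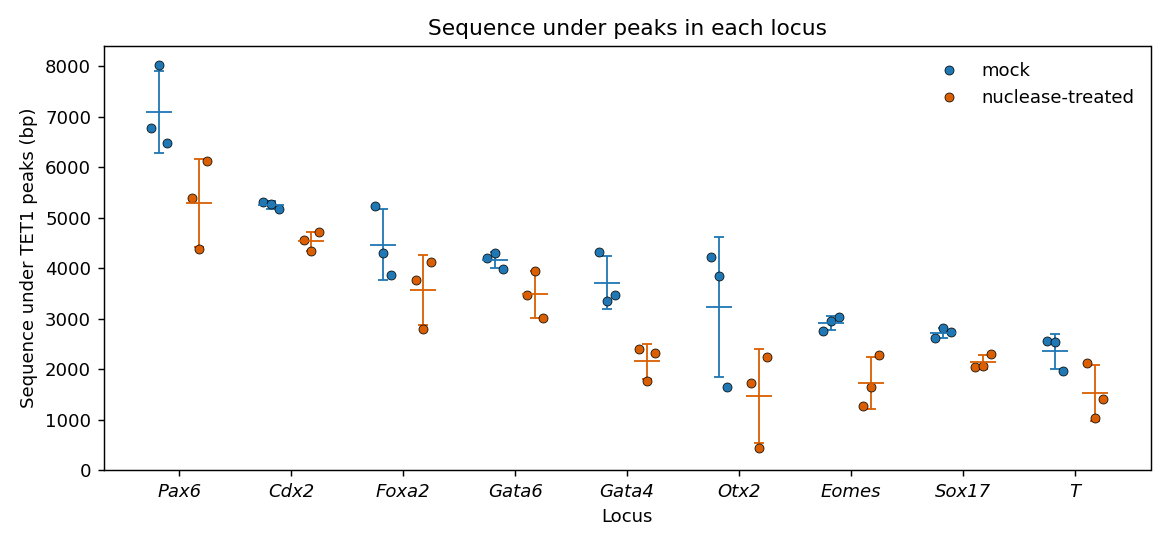
Sequence under TET1 peaks in each window in bp, by library, with the mean and SD of each group. Windows differ in length, so loci are not comparable with one another. Mock exceeds nuclease-treated in every library at Pax6, Cdx2, Gata6, Gata4, Eomes and Sox17.

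The widest peak of the window was narrower on average at all 9 loci, and without overlap at 6, namely Gata4, T, Foxa2, Cdx2, Otx2 and Eomes. Among tiles with a peak in all 6 libraries 32.7% showed this separation. Gata4 had the clearest gap, at 1152, 1175 and 1208 bp in mock and 758, 680 and 831 bp after treatment. Peak width depends on the local background as well as on coverage. The mean local background at the peaks of a window, relative to the genome-wide level, was higher in the treated lists without overlap at 8 of the 9 loci, as in 57.2% of such tiles. It went from 1.05 ± 0.0172 to 1.59 ± 0.161 at Foxa2 and from 1.19 ± 0.00511 to 1.65 ± 0.188 at Sox17 (SD, n = 3 each). At Gata6, the exception, mock lists had 1.38 ± 0.0927 and treated lists 1.34 ± 0.0614 (SD, n = 3 each). The local background comes from 1 pooled input per condition, so its difference is in effect unreplicated, and it cannot be told apart from the treatment. The authors' fold divides by this background, so every p-value given with that fold carries the unreplicated difference. Summit coverage was not divided by the input, but peaks were called against it, so which regions have a value depends on it.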

How the data were processed

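HA-tagged TET1 was measured by ChIP-seq in 6 libraries, and groups came from the sample titles. The 2 pooled inputs were not analysed here on their own. Per the submitters' processing notes, the build was mm9 and the tools included MACS2 2.1.1, Bowtie2 2.2.8, bedtools 2.25.0, deepTools 2.4.3, Picard and SAMtools 1.3.1; settings were not stated. By the peak names in the deposited lists, the authors called peaks per library against the input of its condition. Each deposited list gives a fold ratio over local background, the p-value and q-value as −log10, and a score, a truncated multiple of that −log10 q, which was not used. The smallest deposited −log10 q was 1.30. Peak numbers missing from a list (620 to 743) are not analysed here, and none falls in the 9 windows.

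Summit coverage was recovered as the whole number of fragments that meets the deposited fold and p under MACS2's formulas within 0.001, for all but 1 of 446708 peaks. It was divided by the most frequent local background, the library's genome-wide mean. Peaks of all lists that overlap or touch were merged into regions, and the highest peak counts. limma 3.58.1 (R 4.3.3) was fitted to log2 coverage with no pseudocount at regions found in all 6 lists. Values per locus were compared by exact two-sided permutation tests. SciPy 1.17.1 was used. On simulated data the coverage was recovered for 100% of 5000 peaks. For limma, noise was drawn as independent normal values with the pooled residual SD of each coverage decile of the 29613 regions. Differences in noise between regions of a decile, and shifts shared by a library, were thus absent. With most regions changed, limma called 99.4% of regions with a log2 change of -1 and 50.4% of those with -0.5. With few regions changed (50 at -2, 100 at -1 and 50 at -0.5), it called 78% at -1 and 14% at -0.5. After centring, limma called more regions in the data (574 lower and 445 higher) than were planted there. These shares are therefore not the power of the centred fit, and they apply to the main fit only under this simpler noise.

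The text names all 9 loci, the strongest region of each among those found in all lists, the widest, the largest fall past the threshold, and regions found in all lists of one group only; no region rose, and other regions were named after their values were seen. The members and lists were chosen with earlier results of these data known. The planned comparison with other lineage genes needs an mm9 annotation and was not run.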

Additional observations from a re-analysis of the deposited data

How the results depend on the processing

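Of 456 recomputed values, 396 were counted as unchanged. Regions were judged by direction and call, counts to within 1.5 times, and values per locus by direction alone. The Gata6 peak number, with a main difference of 0, was so counted although its alternatives ran from -0.667 to 0.333. No permutation test of 3 libraries against 3 can pass 0.05, so keeping its side says little for values per locus. Sequence under peaks and highest summit coverage kept their direction at all 9 loci under every alternative that gave a value (the highest Otx2 summit gave none with a stricter q threshold), while which loci separated without overlap changed.

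Member regions that fell numbered 0 of 22 after centring, 17 of 22 with the authors' fold, 11 of 17 among regions of at least 10 times background and 2 to 7 when 1 library was left out. Over all regions, 574 fell after centring (1.94%), 16538 with the authors' fold (55.8%), 10800 of 18725 at 10 times background or more (57.7%) and 7075 to 8576 (21.3% to 27.7%) when 1 library was left out. Regions that rose numbered 445 after centring, 23 with equal list lengths, 191 where 2 libraries of each group sufficed, 11 with a stricter q threshold, 11 at 10 times background or more and 67 to 166 when 1 library was left out. Centring turned the differences of the strongest regions of T (0.23), Gata4 (0.10) and Otx2 (0.068), by its construction. The difference in peak number reversed with a stricter q threshold at Foxa2 (-1.67) and Sox17 (-0.667). Leaving out 1 library gave -0.167 to 1.33 peaks at Foxa2, 0 to 1 at Sox17, -0.667 to 0.333 at T and -0.5 to 0 at Cdx2. Causes not named were not tested.

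With the replicate block, 6 member regions fell, where the unblocked fit had 7; the strongest Pax6 region lost its call (limma adjusted p = 0.0565). Deviations of same-numbered libraries correlated at 0.0134, -0.00489 and 0.0379, so the numbers were not treated as pairs; not every sample correlated best with its own number.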
